A study of Mus musculus with 50 samples.

Results

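This report describes 10 mouse genes of immune cells: the IgG receptor genes Fcgr1, Fcgr2b, Fcgr3 and Fcgr4, their signalling subunit Fcer1g, the leukocyte integrin chains Itgb2 and Itgal, the selectin ligand gene Selplg, and the phagocyte NADPH oxidase genes Ncf1 and Cybb. They were found by their symbols, and all 10 were present among the 24984 genes of the count files. The members were chosen by RNA levels measured in these same libraries, taken here to be those of old against young tissue, so those values are given for both tissues as a description. How many members passed the call of the fit over all genes is stated there, without p-values, and nothing is read from it. RNA-seq covered 38 libraries in 10 groups. Kidney and liver came from untreated female C57BL/6 mice, either young (2.5 months) or old (23 to 25 months), with 4 libraries per group. Kidney and liver of C57BL/6 mice aged 20 to 21 months, treated with DMSO or with 3C, also gave 4 libraries per group, and 3C is not explained in the labels. Skin fibroblasts of C57BL/6 mice, labelled P9, had 3 libraries with DMSO and 3 with 3C. ATAC-seq, which reads open chromatin, covered 12 libraries of young and old kidney and liver, 3 per group. No label ties a library to a separate animal or culture, so the p-values measure the spread between these libraries, part of which may be technical.

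Fc gamma receptors bind the constant part of IgG and let myeloid cells take up or attack what antibodies have marked. Fcgr1, Fcgr3 and Fcgr4 encode activating receptors, which signal through the activation motif (ITAM) of the shared gamma chain made by Fcer1g. Fcgr2b encodes the inhibitory receptor, which carries its own inhibitory motif (ITIM) and is also abundant in the endothelium of liver sinusoids. Itgb2 and Itgal encode CD18 and CD11a, the chains of the integrin LFA-1, which binds ICAM-1 on endothelium. Selplg encodes PSGL-1, on which leukocytes roll along selectins. Cybb and Ncf1 encode the catalytic subunit gp91phox and the cytosolic organizer p47phox of the oxidase that makes superoxide in phagocytes.

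In GRCm38, the build of the files, 4 members lay within 1 stretch of chromosome 1: Fcgr2b (170958617-170976547, minus strand), Fcgr4 (171018920-171029761, plus), Fcgr3 (171051174-171064935, minus) and Fcer1g (171229572-171234365, minus). Fcgr1 lay on chromosome 3 (96282909-96293969, minus). The promoter windows below, from 250 bases before to 50 after a RefSeq start site (GRCm38.p6), show the 3 activating receptors, then the inhibitory receptor and the gamma chain, and then Cybb. Each is written in the direction of its gene. Capitals mark GAGGAAG, letters of the type bound by the myeloid factor PU.1, which read CTTCCTC on the other strand, and in Cybb TGANTCA, letters of the type bound by AP-1; both were searched on both strands.
Fcgr1, chr3:96293920-96294219, - strand: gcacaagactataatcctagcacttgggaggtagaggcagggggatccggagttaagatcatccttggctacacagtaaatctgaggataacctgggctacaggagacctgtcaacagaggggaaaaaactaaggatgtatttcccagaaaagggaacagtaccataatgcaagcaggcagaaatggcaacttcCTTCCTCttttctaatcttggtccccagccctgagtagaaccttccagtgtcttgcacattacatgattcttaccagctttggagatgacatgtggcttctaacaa
Fcgr3, chr1:171059354-171059653, - strand: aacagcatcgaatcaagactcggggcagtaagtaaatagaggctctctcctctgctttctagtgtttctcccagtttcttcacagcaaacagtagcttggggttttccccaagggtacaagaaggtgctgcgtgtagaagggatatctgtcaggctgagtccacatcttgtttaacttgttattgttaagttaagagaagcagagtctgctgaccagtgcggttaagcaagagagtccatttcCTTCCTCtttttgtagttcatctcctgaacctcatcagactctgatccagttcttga
Fcgr4, chr1:171018676-171018975, + strand: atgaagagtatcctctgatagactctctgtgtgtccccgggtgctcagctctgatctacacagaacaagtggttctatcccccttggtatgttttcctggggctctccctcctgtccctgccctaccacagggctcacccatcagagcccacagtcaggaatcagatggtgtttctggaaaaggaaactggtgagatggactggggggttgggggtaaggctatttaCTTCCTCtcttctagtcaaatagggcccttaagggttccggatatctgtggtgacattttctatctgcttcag
Fcgr2b, chr1:170976022-170976321, - strand: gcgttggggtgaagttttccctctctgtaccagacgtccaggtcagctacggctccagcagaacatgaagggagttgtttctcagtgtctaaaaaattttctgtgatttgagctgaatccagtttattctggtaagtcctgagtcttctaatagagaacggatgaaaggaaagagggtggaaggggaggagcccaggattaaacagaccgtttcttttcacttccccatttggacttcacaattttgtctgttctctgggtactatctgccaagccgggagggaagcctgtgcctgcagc
Fcer1g, chr1:171234300-171234599, - strand: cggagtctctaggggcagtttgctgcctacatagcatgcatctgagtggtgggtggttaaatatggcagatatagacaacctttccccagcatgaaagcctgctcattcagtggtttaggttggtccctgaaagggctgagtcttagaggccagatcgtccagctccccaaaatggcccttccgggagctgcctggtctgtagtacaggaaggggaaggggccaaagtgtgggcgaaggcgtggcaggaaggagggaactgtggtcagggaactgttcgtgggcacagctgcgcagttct
Cybb, chrX:9469275-9469574, - strand: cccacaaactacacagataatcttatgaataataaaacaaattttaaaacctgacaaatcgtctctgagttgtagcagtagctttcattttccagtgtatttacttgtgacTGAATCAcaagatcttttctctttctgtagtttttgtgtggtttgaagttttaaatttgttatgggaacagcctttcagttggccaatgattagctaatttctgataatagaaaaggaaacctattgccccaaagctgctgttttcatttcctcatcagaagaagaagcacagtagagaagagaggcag
GAGGAAG stood in the windows of Fcgr1, Fcgr3 and Fcgr4, in each on the opposite strand, beginning 56, 7 and 23 bases before the start site. It was in 13.6% of 32817 RefSeq promoter windows of this length. None of the windows of Fcgr2b, Fcer1g, Ncf1 and Cybb held these letters. TGANTCA stood in Cybb alone, beginning 139 bases before the start site, and in 7.81% of all windows. A second RefSeq window of Fcgr3, shifted by 9 bases, held the same site. The table had windows for 7 members, without Itgb2, Itgal and Selplg.

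RNA libraries held 14238228 to 43704147 reads in genes. Levels are CPM, the count of a gene scaled by its library's reads in genes, and fold changes are those of edgeR with TMM size factors. Kidney libraries held kidney tubule and podocyte markers at 15300 CPM or more and liver libraries held hepatocyte markers at 67000 CPM or more, each summed over 6 genes. Old kidney replicate 2 also held liver RNA, and the median hepatocyte marker there reached 2.51% of what old liver had. That share of the old liver level would supply 1.21 to 4.09% of the members' own levels in this library. In old liver replicate 1, genes with over 6 kb of exon were lower relative to genes under 1.5 kb by 1.23 on the log2 scale (long minus short -1.23), and in old kidney replicates 1 and 3 this value was -0.55 and -0.85, and in young liver replicate 4 it was -0.69. The untreated and the DMSO and 3C series may have been counted differently and are not compared by a test.

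**Figure D1:**
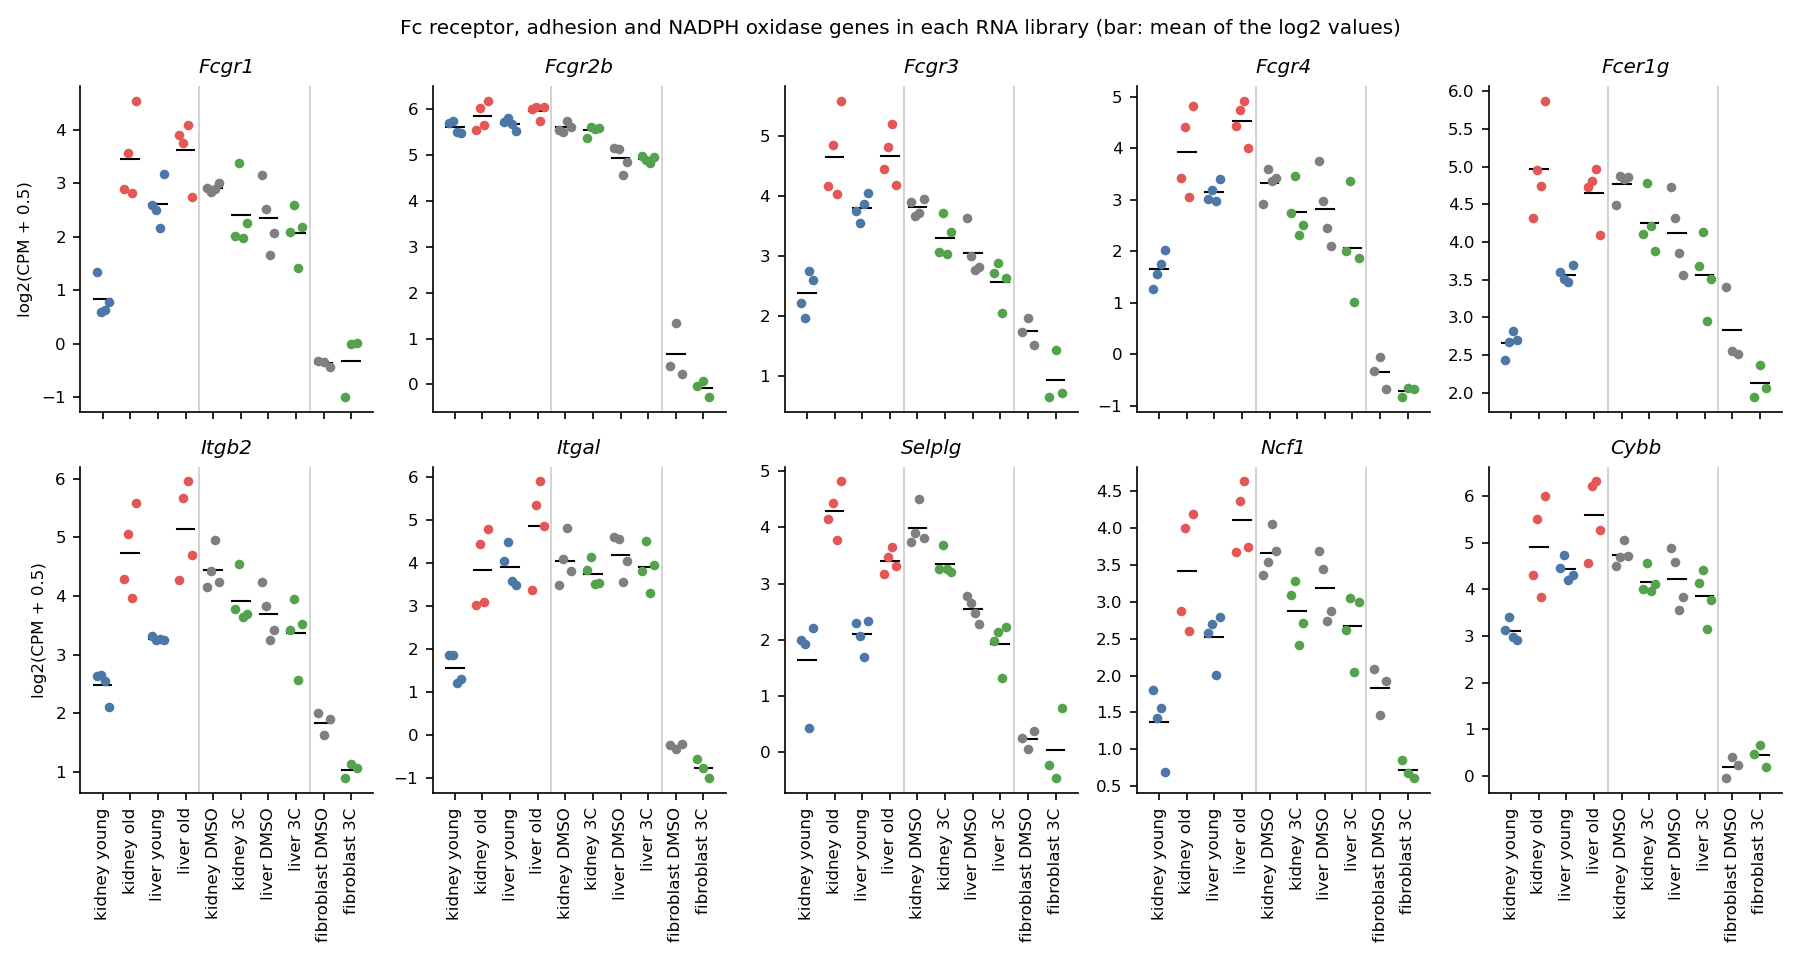
Log2(CPM + 0.5) of each of the 10 genes in the 38 RNA libraries, with points for libraries, bars for group means of these values, and grey lines between the untreated tissues, the DMSO and 3C tissues and the fibroblasts. Young kidney sits below old kidney for every gene but Fcgr2b, whose tissue libraries all lie between 23.3 and 72.2 CPM, and fibroblasts sit below the tissues for most genes.

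Across the 10 groups, in CPM without size factors, the mean level was highest in an old untreated group for each of the 10 genes. The members were taken as high in old against young tissue, so this order is a description. Between kidney and liver it also depends on the scaling, as given below for DMSO tissue. Old liver held the highest mean of Fcgr1, Fcgr2b, Fcgr4, Itgb2, Itgal, Ncf1 and Cybb, and old kidney that of Fcgr3, Fcer1g and Selplg. Between the highest and the second group the libraries overlapped for all of these genes. The lowest mean was always that of a fibroblast group, and the ratio of the highest to the lowest mean ran from 8.66 for Fcer1g to 384.5 for Itgal. The ratio of Itgal rests on 5 reads in the 3 fibroblast libraries with 3C (mean 0.090 CPM), so its size is uncertain. Of the 9 steps between neighbouring groups in each order, 6 to 9 overlapped, with all 9 overlapping for Ncf1.

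Per kb of exon, the inhibitory receptor led in young kidney and no longer did in old kidney. In young kidney Fcgr2b had the highest mean level of the 10 genes, at 8.38 CPM per kb, ahead of Fcer1g at 6.66 and Fcgr3 at 2.80. In old kidney Fcer1g led at 38.5 CPM per kb, followed by Fcgr3 at 15.8, Fcgr4 at 13.2 and Fcgr2b at 10.1. Itgal was lowest in both, at 0.381 and 2.44 CPM per kb. In liver Fcer1g led at both ages, at 13.01 CPM per kb in young and 28.9 in old, and Fcgr2b moved from second place at 8.83 to the fifth at 10.7.

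In kidney, the activating receptors were several times higher in old than in young mice, while Fcgr2b was not. Fcgr1, the high-affinity IgG receptor, was at 2.02, 1.01, 1.05 and 1.23 CPM in young kidney replicates 1 to 4 and at 6.94, 11.3, 6.57 and 22.8 in old replicates 1 to 4. The groups did not overlap, and old replicate 4 was the highest. The log2 fold change was 3.11 (SE 0.42), the largest of the 10. Fcgr4, an activating receptor of myeloid cells, was at 1.91 to 3.58 CPM in young and at 10.2, 20.8, 7.82 and 27.5 in old replicates. Its log2 fold change was 2.55 (SE 0.39), with no overlap of the groups. Fcgr3 went from 3.43 to 6.25 CPM in young to 15.9 to 47.7 in old, a log2 fold change of 2.44 (SE 0.35).

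Fcgr2b, the inhibitory receptor, stood at 51.4, 53.4, 44.9 and 44.3 CPM in young kidney and at 46.1, 64.3, 50.03 and 72.2 in old kidney. The groups overlapped, and the log2 fold change was 0.23 (SE 0.13), against a median of 0.02 over all genes. Fcer1g, the gamma chain, was at 4.92, 5.85, 6.53 and 5.98 CPM in young and at 19.5, 30.6, 26.4 and 58.1 in old kidney. These groups did not overlap, and its log2 fold change was 2.48 (SE 0.30).

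Among the adhesion and oxidase genes, the log2 fold changes ran from 2.04 to 2.69. Itgb2, the common chain of leukocyte integrins, was at 5.74, 5.76, 5.34 and 3.802 CPM in young kidney and at 19.0, 32.9, 15.1 and 47.8 in old kidney (log2 fold change 2.42, SE 0.32). Itgal, its partner in LFA-1, was at 1.83 to 3.12 CPM in young and 7.68 to 27.3 in old (log2 fold change 2.62, SE 0.41). Selplg was at 0.843 to 4.14 and 13.2 to 27.7 CPM (2.69, SE 0.39). None of these 3 genes overlapped between the ages. Cybb, the catalytic oxidase subunit, had values of 7.05 to 10.1 CPM in young and of 13.8 to 63.0 in old kidney, with a log2 fold change of 2.04 (SE 0.40). Ncf1 had values of 1.12 to 3.01 and 5.58 to 17.8 CPM, with a log2 fold change of 2.33 (SE 0.40). Old kidney replicate 4 was the highest for all 10 genes and replicates 1 and 3 the lowest.

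In all, 9 of 10 genes, all but Fcgr2b, passed the call used here (edgeR adjusted p under 0.05 and more than 2-fold higher) in old against young kidney, a call that 5.68% of 14495 genes passed. The same 9 had every old library above every young one in CPM, as did 13.5% of all genes. Because the list was chosen with these results known, nothing is read from these counts. Without old kidney replicate 4 the median log2 fold change of the 10 genes was 2.10, and without replicate 2 it was 2.45. With the trend over exon length taken out it was 2.31, and 9 genes were called in each case.

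Markers of immune cells were higher in the same libraries. The summed level of 5 leukocyte markers was 41.9 to 51.8 CPM in young and 156 to 340 in old kidney, and that of 10 macrophage markers was 177 to 214 and 645 to 1550. Lymphocyte markers were higher too, with 7 B and plasma cell markers at 5.62 to 11.1 CPM in young and 376 to 562 in old, and 9 T and NK cell markers at 5.94 to 9.23 and 31.6 to 49.3. Neutrophil markers (8 genes) summed to 0.765 to 2.60 CPM in young and 6.74 to 30.6 in old, with Mpo at 0 in every young library. Endothelial markers (6 genes) overlapped between the ages, at 227 to 333 and 171 to 320 CPM, and of these Stab2, a gene of sinusoidal endothelium, was called lower in old kidney. The part of these cells in the members' values was not tested. In tissue RNA of this kind, more cells of a type and more RNA per cell cannot be told apart.

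Set against Ptprc, the pan-leukocyte gene CD45, the members did not keep 1 ratio. The median count of Fcgr1 per Ptprc count was 0.123 in young and 0.442 in old kidney, without overlap of the libraries (0.105 to 0.160 and 0.221 to 0.536). For Fcgr2b it was 4.81 in young and 2.15 in old, with young libraries at 4.07 to 5.59 and old at 1.26 to 4.09. Itgb2, Itgal, Fcgr4 and Ncf1 per Ptprc also did not overlap and were higher in old kidney, while Fcgr3, Fcer1g, Selplg and Cybb overlapped. Ptprc has 18313 bases of exon and Fcgr1 2589. In old replicates 1 to 4 the Fcgr1 ratio was 0.434, 0.221, 0.536 and 0.449 and the long minus short value -0.55, 0.30, -0.85 and -0.09. In young replicates 1 to 4 the ratio was 0.160, 0.105, 0.116 and 0.129 and the long minus short value 0.41, 0.34, 0.13 and -0.30. The part of length in these ratios was not tested. In liver the ratio to Ptprc overlapped between the ages for 9 members, and the median was 0.431 in young and 0.359 in old for Fcgr1, 1.21 and 0.833 for Fcgr3, 0.720 and 0.703 for Fcgr4, and 0.981 and 0.744 for Fcer1g. Itgb2 did not overlap, at 0.744 to 1.12 in young and 1.14 to 1.95 in old liver. These ratios were added after the values were seen and carry no test.

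In liver, the integrin chain gene Itgb2 and the oxidase gene Ncf1 had the highest log2 fold changes of the 10 with age. Itgb2 was at 9.47, 9.04, 9.13 and 8.97 CPM in young liver and at 18.8, 50.6, 61.5 and 25.4 in old liver replicates 1 to 4. All old libraries lay above the young, and the log2 fold change of 1.99 (SE 0.31) was the largest of the 10 in liver. Ncf1 was at 5.48, 6.01, 3.53 and 6.44 CPM in young and at 12.3, 20.1, 24.3 and 12.9 in old liver (log2 fold change 1.61, SE 0.27). Its partner in the oxidase, Cybb, was at 17.8 to 26.2 and 23.1 to 78.8 CPM, and the groups overlapped (1.23, SE 0.30). Selplg was at 2.75 to 4.55 and 8.49 to 12.1 CPM, without overlap (1.32, SE 0.23).

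Among the liver receptors, Fcgr4 was at 7.57, 8.60, 7.34 and 10.1 CPM in young and at 21.1, 26.0, 29.7 and 15.4 in old replicates, with no overlap and a log2 fold change of 1.39 (SE 0.25). Fcer1g was at 10.5 to 12.5 and 16.6 to 30.8 CPM (1.10, SE 0.24), and Fcgr3 at 11.2 to 16.2 and 17.7 to 36.3 (0.84, SE 0.26). Fcgr1 overlapped between the ages, at 3.96 to 8.47 CPM in young and 6.18 to 16.5 in old. So did Fcgr2b, with 52.2, 56.0, 51.0 and 45.3 CPM in young liver and 63.6, 66.0, 53.4 and 65.9 in old liver and a log2 fold change of 0.23 (SE 0.16). Itgal spanned 10.8 to 21.99 CPM in young and 9.80 to 59.3 in old liver. Its log2 fold change was 1.10 (SE 0.39), and 1.08 with the trend over exon length taken out.

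By the same call, 5 of 10 genes were higher in old liver, Itgb2, Ncf1, Fcgr4, Selplg and Fcer1g, where 1.69% of 12537 genes were. As in kidney, these values chose the list, and the counts are a description only. Every old library was above every young one for 6 of 10 genes, and for 6.72% of all genes. The count rested on few libraries. It was 1 (Itgb2) without young liver replicate 1, 2 or 3, it was 2 (Itgb2 and Ncf1) without old replicate 3, and it was 6 without old replicate 1 or 4. With the replicate number as a block, a pairing that the libraries did not bear out, it was 1 again. The median log2 fold change of the 10 genes was 1.17, and it was 1.15 with the length trend taken out, 1.32 without old replicate 1 and 0.98 without old replicate 3. Old replicate 3 was the highest library for 9 of 10 genes.

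Summed markers of several immune cell types did not overlap between young and old liver. The 10 macrophage markers summed to 431 to 621 CPM in young and 738 to 1380 in old liver, and the 5 Kupffer cell markers to 329 to 508 and 572 to 1290. The 8 neutrophil markers stood at 2.85 to 4.87 and 14.8 to 136 CPM. The 5 leukocyte markers summed to 48.5 to 66.9 and 98.5 to 200 CPM, the 7 B and plasma cell markers to 4.21 to 5.05 and 19.3 to 83 CPM, and the 9 T and NK cell markers to 3.62 to 5.94 and 9.05 to 11.5 CPM. Taken singly, 4 of 10 macrophage, 2 of 5 Kupffer cell and 1 of 5 leukocyte markers tested were called higher, where 1.69% of all genes were. For neutrophil markers it was 5 of 5, for B and plasma cell markers 4 of 5, and for T and NK cell markers 0 of 7. The summed hepatocyte markers (6 genes) did not overlap either and were lower in old liver, at 129000 to 168000 and 70100 to 115000 CPM, with 0 of 6 called. Endothelial markers (6 genes) overlapped, at 126 to 211 CPM in young and 89.5 to 227 in old liver. Their median log2 fold change was 0.02, with 3 of 6 above 0, and Lyve1, a gene of sinusoidal endothelium, was the 1 called lower. The part of these cells in the members' values was not tested.

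**Figure D2:**
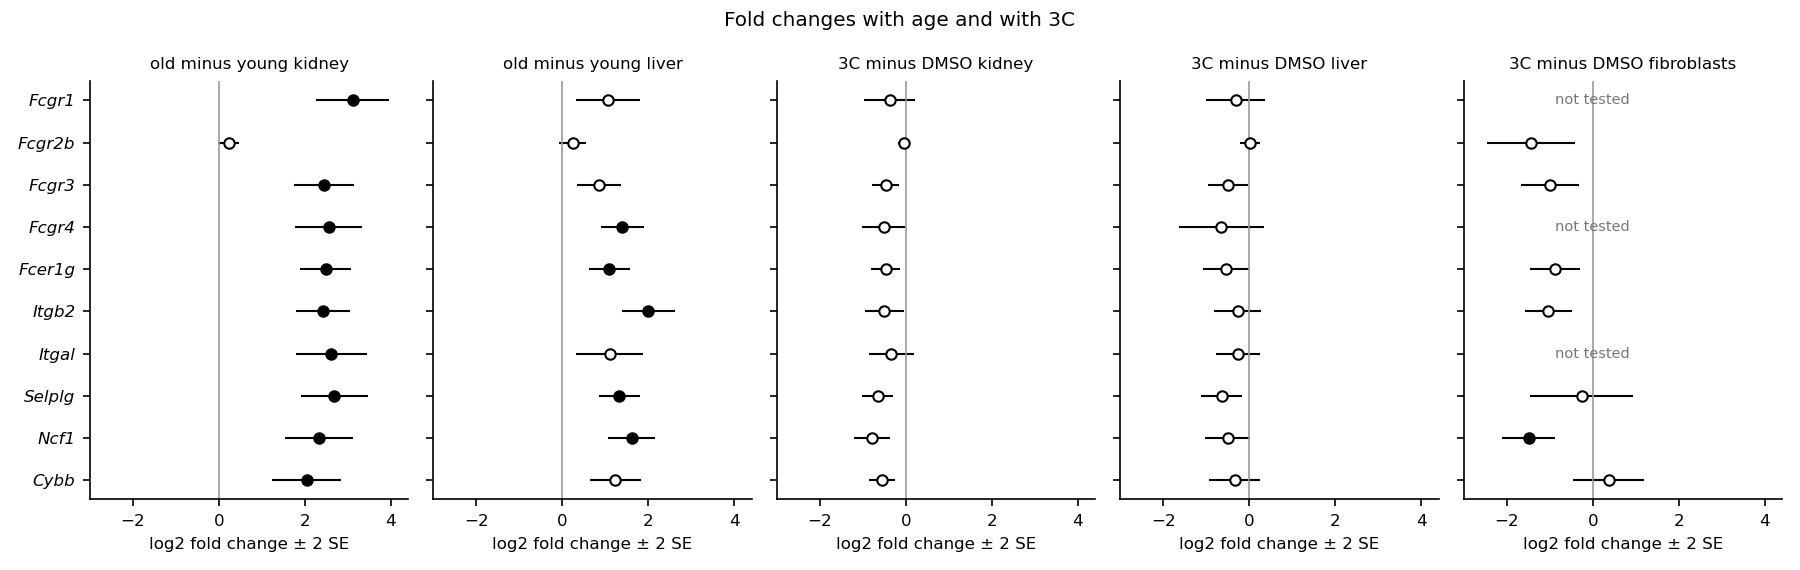
Log2 fold change of the 10 genes in 5 comparisons, with bars of 2 SE on each side; filled points passed the call (edgeR adjusted p under 0.05 and more than 2-fold), and open points did not. In kidney 9 genes lie between 2.04 and 3.11 and Fcgr2b at 0.23, in liver the values run from 0.23 to 1.99, and with 3C only Ncf1 in fibroblasts is filled.

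The balance of an activating to the inhibitory receptor can be read within a library, free of size factors though not of length, since Fcgr4 has 1256 and Fcgr2b 5790 bases of exon. Fcgr4 reads per 100 Fcgr2b reads were 3.77 to 8.13 in young kidney and 15.7 to 38.1 in old kidney. They were 14.4 to 22.2 in young liver and 23.4 to 55.7 in old liver. The ages did not overlap in either tissue, which follows from the members' own values above and is a description. In the DMSO groups the ratio was 15.3 to 25.7 in kidney and 13.3 to 37.3 in liver.

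The ratio was also compared between the young tissues, as a description since those libraries are among the ones that chose the members. In young kidney the mean log2 ratio was -4.19 ± 0.50 (SD, n = 4) and in young liver -2.61 ± 0.30 (SD, n = 4). The difference was -1.58, and the libraries did not overlap. Libraries outside the age groups were tested by exact two-sided permutation tests. Between DMSO kidney and DMSO liver the difference was -0.14 (exact p = 0.657). With 3C it was -0.54 in kidney (exact p = 0.171), -0.85 in liver (exact p = 0.229) and 0.07 in fibroblasts (exact p = 1.0, where 0.1 is the smallest possible). Adjusted over the 5 ratio comparisons computed, these exact p-values were 0.381 to 1.0. In DMSO and 3C kidney the ratios were 15.3 to 25.7 and 9.58 to 21.9, and in liver 13.3 to 37.3 and 5.55 to 33.4, so the groups overlapped. In 3C liver the 33.4 was replicate 2 alone, and the other replicates were at 5.55 to 11.2.

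**Figure D3:**
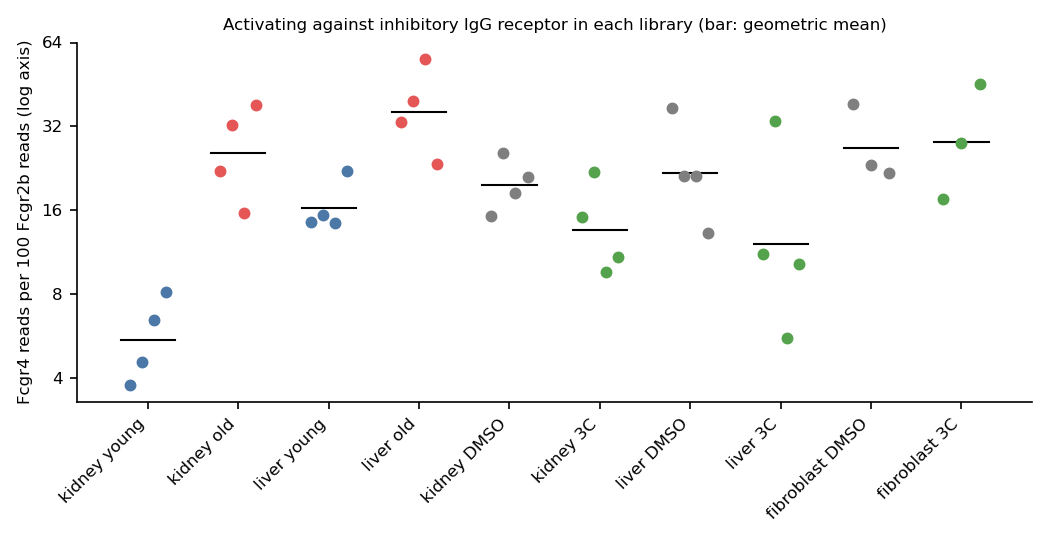
Fcgr4 reads per 100 Fcgr2b reads in each RNA library on a log axis, with bars for the geometric mean of each group. Young kidney (3.77 to 8.13) lies below young liver (14.4 to 22.2) and old kidney (15.7 to 38.1), while the DMSO and 3C groups overlap within each tissue.

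Genes that work with the members were followed in lists that were drawn up with earlier results known. In old against young kidney, where 5.68% of all genes were called higher, 8 of 11 genes of ITAM signalling were and none was called lower, with a list median log2 fold change of 2.33. The adaptor Tyrobp (DAP12), a partner of other activating receptors, went from 7.25 ± 0.98 to 36.8 ± 16.4 CPM (SD, n = 4 each). Of 9 other Fc receptors tested, 6 were called higher. These included Pigr, the epithelial carrier of polymeric immunoglobulin, at 43.7 ± 3.5 and 132 ± 44.7 CPM, and the B cell genes Fcrl5 and Fcrla. Of 8 genes of ITIM receptors and phosphatase feedback, 5 were called higher, among them Pirb (log2 fold change 3.06, SE 0.45) and Inpp5d, the lipid phosphatase SHIP1 through which Fcgr2b acts (1.61, SE 0.32).

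In kidney 5 of 10 integrin chains and activators were called higher, with the smallest p for Itgb7 (log2 fold change 2.09, SE 0.23) and Fermt3, the integrin activator kindlin-3 (1.83, SE 0.21). Itgam, the CD11b chain that pairs with Itgb2 in myeloid cells, went from 1.74 ± 1.14 to 16.95 ± 11.2 CPM. Of 9 adhesion ligands and selectins 6 were called higher, including the LFA-1 ligand Icam1, from 17.7 ± 1.08 to 46.4 ± 12.6 CPM, and Vcam1, from 16.4 ± 1.35 to 56.5 ± 34.2. In the NADPH oxidase list 4 of 8 were called higher, among them the cytosolic subunit Ncf4, the GTPase Rac2 (log2 fold change 2.89, SE 0.24) and the proton channel Hvcn1. In liver, where 1.69% of all genes were called higher, the counts were 0 of 5 other Fc receptors, 2 of 11 ITAM genes (among them Vav1), 1 of 8 ITIM genes (Sirpa), 3 of 10 integrin genes (Itgam, Itgb7 and Apbb1ip), 0 of 8 adhesion ligands and 2 of 7 oxidase genes (Rac2 and Ncf4), all higher. The list medians in liver were 0.88 to 1.27 on the log2 scale, against 0.003 over all genes.

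With 3C in kidney, none of the 10 genes passed the call, and neither did any gene among 14974 tested (0%). All 10 log2 fold changes were below 0, with a median of -0.48, where 48.6% of all genes were below 0. Ncf1 was at 9.82, 11.2, 16.1 and 12.4 CPM in DMSO replicates 1 to 4 and at 7.99, 9.26, 4.81 and 6.07 in 3C replicates. All 3C values lay below all DMSO values, and the log2 fold change was -0.78 (interval of 2 SE, -1.20 to -0.36), with an edgeR adjusted p of 0.226. Selplg was at 12.8, 14.5, 22.1 and 13.5 CPM with DMSO and at 9.07, 12.3, 9.06 and 8.76 with 3C, also without overlap (-0.65, interval -1.01 to -0.29, edgeR adjusted p = 0.229). Cybb, at 22 to 32.9 and 15.1 to 23.1 CPM, overlapped (-0.55, interval -0.85 to -0.26, edgeR adjusted p = 0.226).

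The other members of 3C kidney overlapped with DMSO. Itgb2 had a log2 fold change of -0.50 (interval -0.95 to -0.05) and Itgal of -0.34 (-0.86 to 0.19). Both leaned on DMSO replicate 3, with 30.6 CPM of Itgb2 where the other DMSO kidneys had 17.3 to 20.9. For Itgal it had 27.8 CPM, where they had 10.7 to 16.6. Fcgr3 had a log2 fold change of -0.47 (interval -0.78 to -0.16), Fcer1g of -0.47 (-0.81 to -0.13), Fcgr4 of -0.51 (-1.01 to -0.02) and Fcgr1 of -0.38 (-0.97 to 0.22). Fcgr2b was at 46.5, 44.9, 53.2 and 48.7 CPM with DMSO and at 40.9, 48.4, 47.0 and 47.9 with 3C. Its log2 fold change of -0.04 had an interval of -0.18 to 0.10. At an unadjusted p under 0.05, 6 of 10 members were lower (Fcgr3, Fcer1g, Itgb2, Selplg, Ncf1 and Cybb), as were 7.09% of all genes, and 2 of 10 had every 3C library below every DMSO library, as 5.35% of all genes had. DESeq2 also called none at the 2-fold threshold, but its adjusted p was under 0.05 for Ncf1 (0.0296), Cybb (0.0374) and Selplg (0.0422), and it called 4 genes in all.

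Replicate 2 of 3C kidney was the highest 3C library for all 10 members. It had 9.88 CPM of Fcgr1 where the other 3C libraries had 3.46 to 4.31, and 22.7 CPM of Itgb2 where they had 12.01 to 13.2. Without it the log2 fold changes reached -0.93 for Ncf1 and -0.85 for Fcgr1, and no member passed the call. No immune marker was called in 3C kidney. The 10 macrophage markers summed to 541 to 650 CPM with DMSO and 336 to 536 with 3C, and 5 leukocyte markers to 171 to 278 and 110 to 168. The median log2 fold change was -0.70 for T and NK cell markers (28.2 to 70.9 and 20.6 to 32 CPM) and -1.05 for B and plasma cell markers (108 to 403 and 119 to 195 CPM), both with overlapping sums. Neutrophil markers overlapped, at 9.38 to 12.1 CPM with DMSO and 6.29 to 20.7 with 3C, with a median log2 fold change of -0.04. Fibroblast markers (6 genes) were at 474 to 576 and 249 to 396 CPM without overlap, and their median log2 fold change was -0.63, where that of the macrophage markers was -0.54 and that of the members -0.48. The part of these cells in the members' values was not tested. All 11 ITAM genes had log2 fold changes below 0, with a list median of -0.50, and no gene of the 6 pathway lists was called.

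In liver with 3C, no member and none of 13042 genes passed the call (0%). Here 9 of 10 members had a log2 fold change below 0, with a median of -0.42, against 50.3% of all genes below 0. With 1 library left out this median ran from -0.58 (without 3C replicate 2) to -0.21 (without DMSO replicate 1). Selplg was at 6.38, 5.82, 5.09 and 4.34 CPM with DMSO and at 3.44, 3.92, 1.996 and 4.19 with 3C, the only member with every 3C library below every DMSO library, as 1.23% of all genes had. Its log2 fold change was -0.65 (interval -1.13 to -0.16, edgeR adjusted p = 1.0), and it alone was lower at an unadjusted p under 0.05, as were 1.43% of all genes. The count at an unadjusted p under 0.05 was 0 without DMSO replicate 1 or 2 or 3C replicate 3, 4 without DMSO replicate 4, 5 without 3C replicate 2 and 3 with the replicate number as a block. Fcgr4 was at 13.03, 7.33, 4.93 and 3.78 CPM with DMSO and at 3.49, 9.71, 1.53 and 3.14 with 3C. These spread widely, and the interval of its log2 fold change (-0.65) ran from -1.64 to 0.34. Fcgr2b, at 23.3 to 35.0 and 28.0 to 31.3 CPM, had a log2 fold change of 0.01 (interval -0.23 to 0.25), which turned to -0.03 when only library totals were used for scaling. DESeq2 called no member either.

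Liver DMSO replicate 1 was the highest and liver 3C replicate 3 the lowest library of its group for all 10 members. Macrophage markers summed to 307 to 687 CPM with DMSO and 216 to 451 with 3C, and Kupffer cell markers to 170 to 490 and 123 to 316, with overlap in both. The 9 T and NK cell markers did not overlap, at 8.59 to 14 CPM with DMSO and 5.71 to 6.72 with 3C, and their median log2 fold change was -0.76, against -0.42 for the members. The part of these cells in the members' values was not tested. Without DMSO replicate 1 the log2 fold change of Fcgr4 was -0.27, and without 3C replicate 2 it was -1.37, and no member passed the call in any fit that left out 1 library. An interaction term in edgeR tested whether the 3C effect depended on the tissue. It was called for no member and for none of 15526 genes (0%), with 0 members at an unadjusted p under 0.05, and for none with DESeq2.

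Skin fibroblast cultures held few reads of most of these genes, and 7 of 10 passed the filter on low counts. With DMSO, mean Fcer1g (6.90 CPM) and Ncf1 (3.11 CPM) were above those of young kidney (5.82 and 2.19 CPM), with overlapping libraries. Ncf1 was at 3.75, 2.26 and 3.31 CPM with DMSO and at 1.31, 1.10 and 1.03 with 3C. The groups did not overlap, and with a log2 fold change of -1.49 (SE 0.31, edgeR adjusted p = 0.0247) Ncf1 was the 1 member called lower, as were 0.632% of 13449 genes. The call was lost without DMSO replicate 1 or 3 or 3C replicate 2 or 3. Itgb2 was at 3.495, 2.59 and 3.25 CPM with DMSO and at 1.37, 1.70 and 1.61 with 3C (log2 fold change -1.04, SE 0.27, edgeR adjusted p = 0.0609). DESeq2, the fit without a filter and the fit without the length trend called it too.

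Other fibroblast members did not pass. Fcgr2b was at 0.820, 2.05 and 0.674 CPM with DMSO and at 0.475, 0.550 and 0.321 with 3C, without overlap (-1.43, SE 0.52, edgeR adjusted p = 0.148), and its log2 fold change was -0.77 without DMSO replicate 2. Fcer1g was at 10.1, 5.39 and 5.21 CPM with DMSO and at 3.32, 4.67 and 3.66 with 3C (-0.88, edgeR adjusted p = 0.118). Fcgr3 was at 2.85, 3.43 and 2.39 CPM and at 1.07, 2.199 and 1.16 (-0.99, edgeR adjusted p = 0.126). In CPM, 5 of the 7 tested members lay lower in every 3C library than in every DMSO library, as did 9.93% of the genes tested. Cybb (0.37, SE 0.41) and Selplg (-0.26, SE 0.60) overlapped. Fcgr1, Fcgr4 and Itgal were not tested, at no more than 0.514 CPM in any culture. Fcgr1 in 3C replicate 1 and Itgal in 3C replicate 3 had 0 reads, which allows up to 0.178 and 0.193 CPM (3 reads).

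These genes mark immune cells, and the fibroblast libraries held reads of macrophage markers: all 10 had reads, with sums of 292 to 372 CPM with DMSO and 142 to 196 with 3C. The 5 leukocyte markers summed to 44.5 to 62.5 and 22.3 to 30.6 CPM. Kupffer cell markers were at 0 with DMSO, and Cd3d and Cd3g were at 0 in every fibroblast library. The macrophage sum was thus lower with 3C, as Ncf1 was, but of 9 macrophage markers tested 1 was called lower (Lyz2). Their part in the members' values was not tested. Of the pathway lists, Lilrb4a, an inhibitory receptor of myeloid cells, was the 1 gene called, lower at 4.56 ± 1.27 CPM with DMSO and 1.23 ± 0.34 with 3C (SD, n = 3 each; edgeR adjusted p = 0.00823).

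Kidney and liver differed in scale as well as in the members. The young libraries are among those that chose the members, and the genes were taken as high in old against young tissue, so their counts in young tissue are a description. A few genes take up much of a liver library, and edgeR with TMM size factors placed all 10 members lower in young kidney than in young liver (median log2 fold change -2.42), where 16.9% of 14057 genes were called lower. In the same fit 7 of 10 macrophage markers (median -3.18), 5 of 5 Kupffer cell markers (median -11.3) and 4 of 5 leukocyte markers (median -1.44) were called lower, while the macrophage marker Cx3cr1 was called higher in kidney. Of the B and plasma cell markers Jchain was called higher and Cd79a and Cd79b lower (median -1.69). Of the T and NK cell markers Cd8a was called higher and Cd3g lower (median -0.61). The neutrophil markers Csf3r and S100a9 were called lower. The part of these cells in the members' values was not tested. With library totals alone the median of all genes moved from 0.08 to 1.16, and 6 members (Fcgr1, Fcgr3, Fcgr4, Itgal, Ncf1 and Cybb) were called lower beside 8.82% of genes. Calls over all genes were 3618 higher and 2369 lower with TMM and 7802 and 1240 with library totals. Itgal had log2 fold changes of -3.65 (SE 0.25) and -2.58 on these scales and Fcgr1 of -3.23 (SE 0.35) and -2.12. Fcgr2b, at 44.3 to 53.4 CPM in young kidney and 45.3 to 56.0 in young liver, was at -1.16 with TMM and at -0.075 with library totals.

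Between DMSO kidney and DMSO liver the direction itself depended on the scaling. With TMM, Itgal alone was called lower in kidney (-1.10, SE 0.28, edgeR adjusted p = 0.00341), a call that 15.7% of 14981 genes passed. Without DMSO kidney replicate 1 that call was lost (-0.93). With library totals Itgal was at -0.12 and Selplg alone was called, higher at 1.54, a call that 52.1% of genes passed. For 8 of the members the sign changed between these scales, and for Itgal and Selplg it did not. Calls over all genes were 3988 higher and 2348 lower with TMM and 7810 and 1200 with library totals.

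Accessibility is another assay than the one that chose the members, and only 3 libraries per group were available, so that an exact permutation test cannot go below 0.1. In kidney the gamma chain gene Fcer1g had no peak within 1 kb of a start site in any young library and had peaks of 2.32, 2.87 and 3.13 fold enrichment in old replicates 1 to 3. It was the 1 member with a peak in all old and no young libraries, a pattern of 0.247% of 17422 genes with a promoter peak in kidney. At Itgb2 the highest peak was at 0 (no peak), 2.46 and 0 in young replicates 1 to 3 and at 3.23, 3.28 and 4.58 in old. Both genes separated old from young, a pattern of 13.5% of genes, and both gave an exact p = 0.1 (adjusted 0.5 over the 10 members). The differences were 2.77 and 2.88 in fold enrichment. With a window of 2 kb Fcer1g no longer separated the ages, and with a -log10 q of at least 5 neither gene did. Without young replicate 2 the members with a peak in all old and no young libraries numbered 3, and without old replicate 2 they numbered 2.

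The other kidney promoters overlapped between the ages. Selplg had a peak in 1 of 3 young and 3 of 3 old libraries, Fcgr1 in 0 and 2, Ncf1 in 0 and 1, and Cybb in 0 and 1. Fcgr3 had peaks in 2 young and 2 old libraries. Fcgr2b had peaks in every library and the highest of the 10 genes, at 6.66, 7.79 and 7.32 in young and 6.16, 5.61 and 7.47 in old kidney (exact p = 0.3). Old kidney libraries held fewer peaks in all, 93072 to 108970 distinct intervals against 115836 to 128395 in young.

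In liver no member had every old library above every young one, where 7.18% of 17427 genes did, and none had a peak in all old and no young libraries (0.379% of genes). Without old replicate 2, 3 members had old above young. Fcgr2b was lower in every old library, at 5.79, 5.61 and 5.91 in young and 4.26, 5.55 and 3.96 in old, as were 5.85% of genes. The difference was -1.18 (exact p = 0.1, adjusted 0.75). Selplg had no peak in young liver and peaks of 3.501 and 3.23 in old replicates 1 and 3. Itgb2 was at 3.14, 2.34 and 2.81 in young and at 6.14, 2.49 and 1.96 in old liver, where replicate 1 alone was high. Cybb had no promoter peak in any liver library.

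**Figure D4:**
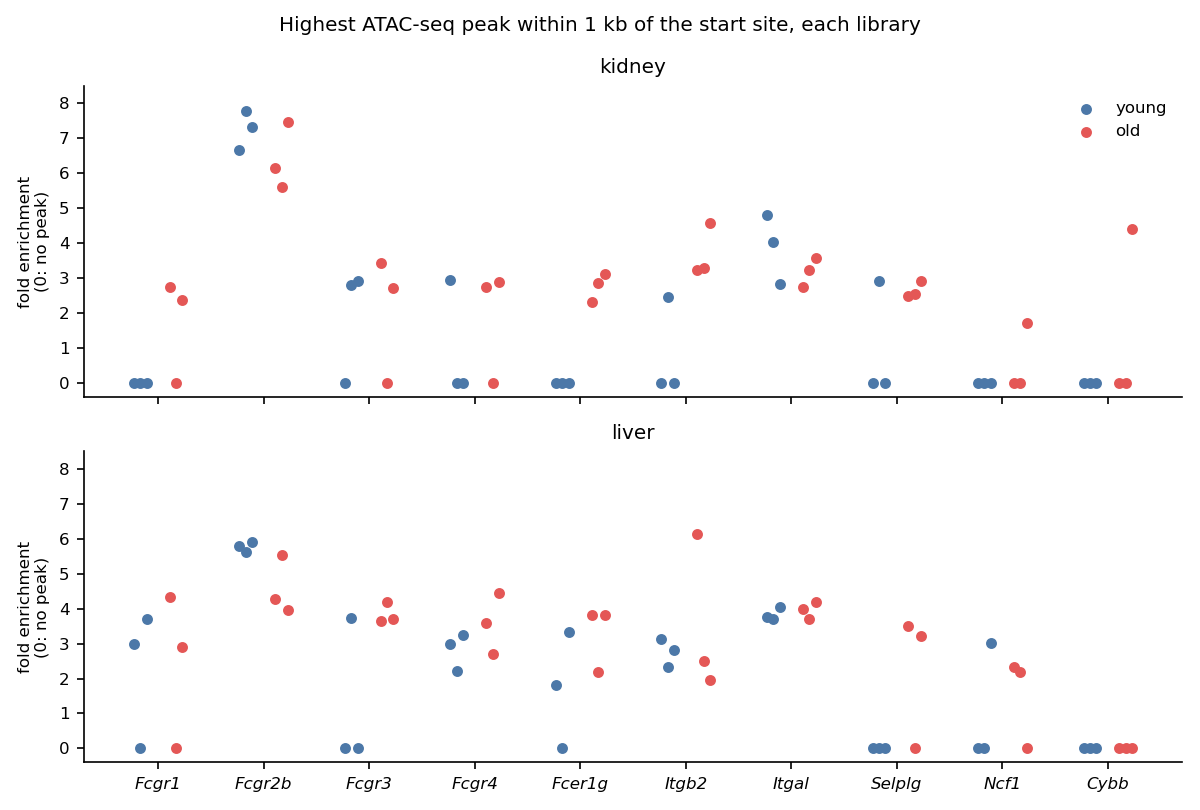
Fold enrichment of the highest ATAC-seq peak within 1 kb of a start site of each gene, in 3 young and 3 old libraries of kidney (top) and liver (bottom), with 0 where no peak was called. In kidney Fcer1g is at 0 in young and 2.32 to 3.13 in old, and Fcgr2b has the highest peaks, at 5.61 to 7.79.

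Over the 38 RNA libraries the members varied along with a set of myeloid genes. Of 13585 genes with a mean of at least 1 CPM, members left out, those closest to the mean log2(CPM + 0.5) of the 10 members included Ctss (cathepsin S, r = 0.977), Aif1 (IBA1, 0.972), Ly86 (0.972) and Cd86 (0.970). Single members had their own nearest genes: C1qa for Fcgr1 (0.977), Cd86 for Fcgr4 (0.972), Lcp2 for Itgal (0.966) and Cybb (0.975), Nckap1l for Itgb2 (0.966), Cd52 for Selplg (0.964), Pld4 for Fcer1g (0.959), Ctss for Fcgr3 (0.957) and Pirb for Ncf1 (0.925). Fcgr2b stood apart, with Dpp4 as its nearest gene (0.984) and a median r of 0.779 with the other members, where theirs were 0.855 to 0.926. These correlations are across libraries that share tissue, series and depth, and they carry no test.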

How the data were processed

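The deposited RNA-seq values were counts, whole numbers of reads per gene; per the labels and the study's methods, the authors used Trimmomatic 0.39 for trimming, HISAT2 2.2.1 for alignment to mm10 and HTSeq 0.12.4 for counting. Exons of Ncf1 and Gtf2ird2 (408 bases) and of Fcgr2b and Gm38204 (155 bases) overlap on opposite strands, and since the study's methods state counting without strand, reads there cannot be told apart. ATAC-seq reads were aligned by the authors with Bowtie2 2.3.5.1, and MACS2 called peaks in each library; the deposited lists give fold enrichment (a ratio over local background), -log10 p and -log10 q, and depth is unknown.

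Counts were fitted per comparison over all genes with edgeR 4.0.16 (R 4.3.3): TMM, filterByExpr with a minimum count of 10, quasi-likelihood F test, Benjamini-Hochberg adjustment. A call needed a fold above 2 or below 0.5 with adjusted p under 0.05. The Fcgr4 to Fcgr2b ratio used 0.5 added counts. CPM used no size factors. A promoter peak overlapped 1 kb on either side of a GENCODE vM21 start site. The fits were repeated with adjusted p alone, a replicate block, each library left out, a mean of 1 CPM or no filter, RLE size factors, and DESeq2 1.42.0; library totals alone and a length trend taken out were chosen after seeing the data. For peaks they were a -log10 q of at least 5, equal numbers of peaks, and windows of 500 bp or 2 kb. Fits were tested on simulated data. Replicate numbers paired the libraries (every same-number correlation above 0.1: 0.118, 0.22, 0.105 and 0.459) only between young kidney and young liver, where the block left all 10 calls. No 2 replicates agreed within sampling noise (54 pairs, smallest chi-square per degree of freedom 8.12). The members and lists were chosen with earlier results of these data known. Named genes are all members, up to 4 called genes per pathway list with the smallest p, and the nearest genes by Pearson r, Gm and Rik genes left out; some genes that these rules name are not reported here.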

Additional observations from a re-analysis of the deposited data

Results flagged for a closer look

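Within the 88 groups of 4 libraries examined (10 genes and the Fcgr4 to Fcgr2b ratio in 8 groups), 5 had 1 library farther from the others than Dixon's limit for the gap over the range. Chance alone passes this limit in about 1 in 20 groups. Replicate 2 of 3C kidney was high for 3 genes: Fcgr1 at 9.88 CPM (others 3.46 to 4.31), Itgb2 at 22.7 CPM (others 12.01 to 13.2) and Selplg at 12.3 CPM (others 8.76 to 9.07). DMSO kidney replicate 1 was low for Fcer1g, at 21.9 CPM where the others were at 28.2 to 29.0. Young liver replicate 4 had the highest log2 Fcgr4 to Fcgr2b ratio, at -2.17 where the others were at -2.79 to -2.70. Long genes were low in that library (long minus short -0.69, and 0.00 to 0.18 in the other young livers), and Fcgr4 has 1256 and Fcgr2b 5790 bases of exon. The causes were not tested.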

How the results depend on the processing

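Over all settings, and as a description for age, 9 members were called in old against young kidney, 0 with 3C in kidney or liver and 0 for the interaction. In old against young liver the count of 5 was 1 with the replicate block and 1 to 6 when 1 library was left out. In fibroblasts the count of 1 was 2 with DESeq2, with no filter and with the length trend removed, and 0 to 1 when 1 library was left out. In young kidney against liver it was 10, and 6 with library totals. In DMSO kidney against liver it was 1 lower, 4 by adjusted p alone, 1 higher with library totals, and 0 to 1 when 1 library was left out. With library totals the log2 fold changes there turned to 0.49 for Fcgr1, 0.67 for Fcgr2b, 0.76 for Fcgr3, 0.41 for Fcgr4, 0.61 for Fcer1g, 0.76 for Itgb2, 0.47 for Ncf1 and 0.45 for Cybb, and that of Fcgr2b with 3C in liver to -0.026. With 1 library left out, the log2 fold change of Selplg in fibroblasts ranged over -1.27 to 0.17, that of Fcgr2b over -0.075 to 0.011 in 3C kidney and -0.058 to 0.079 in 3C liver, and that of Fcgr1 in 3C liver over -0.54 to 0.004. The Fcgr4 to Fcgr2b difference in fibroblasts was -0.089 with 0 counts added and -0.27 to 0.41 when 1 library was left out, and in DMSO kidney against liver -0.38 to 0.12. Kidney members with peaks in all old and no young libraries numbered 1, and 0 with 2 kb, 0 at the stricter q, 2 with equal peak numbers and 1 to 3 when 1 library was left out. Kidney members with old above young numbered 2, 1 with 2 kb, 0 at the stricter q and 2 to 3. In liver these counts were 0 to 1 and 0 to 3 when 1 library was left out. The causes of these changes were not tested. Pairing by replicate number came out only between young tissues, and the block changed no call of a member beyond the liver age count. With 3 to 4 libraries per group, the 3C intervals of 2 SE of several members excluded 0 while no member in tissue passed the edgeR adjustment over all genes. These intervals are not the test. That of Fcgr4 in 3C kidney excluded 0 at an unadjusted edgeR p of 0.0639. In 3C liver those of Fcgr3 and Fcer1g did so at unadjusted edgeR p-values of 0.0563 and 0.0677.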
